A study of Mus musculus with 4 samples.

Results

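The genes described here are mouse transcripts that still carry a RIKEN clone name of 3 adult testis series, with the same first 4 digits as 1700003G18Rik, 4930451I11Rik or 4933400L20Rik. They were chosen by their name and by a mean level of 10 FPKM or more over the 4 libraries, which gave 186 of 44509 genes. FPKM counts sequenced fragments relative to the length of the gene and to the size of the library. The table held 1275 genes with these names, so 1089 were below the limit. Of the 186 names, 110 began like 1700003G18Rik, 57 like 4930451I11Rik and 19 like 4933400L20Rik. Since the mean level was used in the choice, it is given as a description. Just inside the limit were 1700013H16Rik, 1700121C08Rik and 1700008O03Rik, with means from 10 to 10.2 FPKM. Just outside it were 4930522H14Rik, 1700019C18Rik and 1700030O20Rik, with means of 9.99, 9.89 and 9.81 FPKM.

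RNA came from mouse testis in 4 libraries. Per the source labels, 2 were from mice with oligozoospermia (a low sperm number) caused by busulfan, and 2 from such mice given Cus-1, which the series title calls a resin glycoside and a cuscutae extract. The latter are called the treated libraries here. All 4 libraries therefore share busulfan, a cytotoxic alkylating agent to which spermatogonia are sensitive, and no testis without busulfan was analysed here. Recovery of spermatogenesis under Cus-1 is the question that the title names. The labels give no strain, age, dose or time, and do not say whether libraries of a group were separate animals, so p-values measure only the spread between these libraries, which may be technical. The sample titles begin with BPA in the busulfan group and with CUS2 in the treated group, which the labels do not explain, so the groups rest on the source label alone.

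The RIKEN project sequenced full-length cDNA clones from many mouse tissues and named each by its library and plate, and these prefixes mark adult testis libraries. A gene keeps such a name until a function gives it another, so the names collect genes that are known mainly from their presence in testis. Spermatogenesis runs from spermatogonia through meiotic spermatocytes to round and then elongating spermatids, and spermatocytes and spermatids transcribe an unusually wide share of the genome, many long non-coding RNAs included. The testis was also represented by its other cells: every gene of lists of 24 Sertoli and 14 Leydig cell genes was detected.

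The gene starts of 134 of the 186 had promoter entries in the RefSeq table of build GRCm38.p6. The 5 shown here are the Rik gene with the highest fold change, a very abundant one whose start carries a repeated motif, one with a described role in male fertility, one that shares its start region with a neighbouring gene, and the one with the lowest fold change. Each runs 5′ to 3′ on the gene's strand, from 250 bases before to 50 bases after the start. Capitals mark GTTGCC, the core letters bound by RFX factors, which act in meiosis and ciliogenesis, and TGACG, the core letters of the cAMP response element bound by CREM in spermatids, on either strand.
1700003G18Rik, chr7:116093100-116093399, minus strand: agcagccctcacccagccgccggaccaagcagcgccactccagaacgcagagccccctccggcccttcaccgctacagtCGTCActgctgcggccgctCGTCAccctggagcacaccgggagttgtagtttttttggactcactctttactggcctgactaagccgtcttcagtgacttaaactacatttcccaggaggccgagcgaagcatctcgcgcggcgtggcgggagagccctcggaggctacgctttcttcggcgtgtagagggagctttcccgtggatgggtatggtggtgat
1700010I14Rik, chr17:8988083-8988382, plus strand: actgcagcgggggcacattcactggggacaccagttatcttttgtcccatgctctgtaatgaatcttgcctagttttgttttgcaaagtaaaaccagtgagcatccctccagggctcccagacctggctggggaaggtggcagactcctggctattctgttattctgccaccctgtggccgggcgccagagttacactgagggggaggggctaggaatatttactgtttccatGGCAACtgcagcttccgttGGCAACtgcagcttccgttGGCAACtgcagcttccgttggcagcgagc
1700102P08Rik, chr9:108392584-108392883, plus strand: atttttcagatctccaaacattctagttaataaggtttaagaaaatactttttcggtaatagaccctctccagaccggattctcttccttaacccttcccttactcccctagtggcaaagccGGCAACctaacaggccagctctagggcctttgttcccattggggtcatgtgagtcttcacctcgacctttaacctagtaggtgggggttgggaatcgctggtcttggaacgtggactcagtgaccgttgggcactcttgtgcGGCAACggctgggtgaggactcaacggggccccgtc
1700003E16Rik, chr6:83156154-83156453, plus strand: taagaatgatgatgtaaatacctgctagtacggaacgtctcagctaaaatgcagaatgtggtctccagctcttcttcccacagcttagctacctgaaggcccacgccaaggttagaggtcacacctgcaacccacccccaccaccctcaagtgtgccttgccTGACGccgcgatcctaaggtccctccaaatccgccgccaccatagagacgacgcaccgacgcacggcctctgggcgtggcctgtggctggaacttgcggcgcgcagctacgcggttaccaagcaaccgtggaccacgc
4930486L24Rik, chr13:60864367-60864666, minus strand: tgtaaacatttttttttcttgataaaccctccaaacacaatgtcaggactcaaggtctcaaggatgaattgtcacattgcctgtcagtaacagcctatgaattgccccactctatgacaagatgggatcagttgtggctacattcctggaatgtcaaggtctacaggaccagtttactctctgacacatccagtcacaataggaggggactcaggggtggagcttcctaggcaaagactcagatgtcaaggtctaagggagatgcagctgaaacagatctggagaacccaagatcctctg

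Most testis-clone Rik genes had a level about 2 times as high in the treated libraries as in those with busulfan alone, though none passed the adjusted threshold. The median level on the log2(FPKM + 1) scale was 3.70 and 4.02 in busulfan libraries 1 and 2, and 5.07 and 4.60 in Cus-1 libraries 1 and 2. Their summed level was 3860 and 5170 FPKM against 10500 and 7470 FPKM, which was 0.531% and 0.697% of the table under busulfan and 1.44% and 1.01% under Cus-1. Both Cus-1 libraries thus lay above both busulfan libraries in the sum and in the median. The Rik genes had a median log2 fold change of 0.96, where the median of all tested genes was 0.04, and the median ratio of group means was 2.02. In bulk tissue, fewer cells of a type and less RNA per cell cannot be told apart.

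Of the 186 Rik genes, 165 lay above both busulfan libraries in each treated library, as 36.6% of all 19837 tested genes did and 39.8% of those at 10 FPKM or more. Another 3 lay below in each, as 31.7% of tested genes did, and 18 overlapped between the groups, as 6276 of the 19837 tested genes did. The log2 fold change was above 0 for 182 genes (52.4% of tested genes). It was above 0.5 for 170 (5415 of the 19837 tested genes), above 1 for 81 (1499) and above 1.5 for 4 (196). The quartiles lay at 0.78 and 1.15, while over all tested genes they lay at -0.36 and 0.55. No Rik gene passed limma's adjusted threshold of 0.05, and the background was 0.0% of tested genes. At an unadjusted limma p under 0.05, 134 Rik genes were higher (18.0% of tested genes were) and 1 was lower (9.96% were). The smallest limma adjusted p of a Rik gene was 0.152. Without busulfan library 1 the 134 became 64 (5.84% of tested genes), and without Cus-1 library 1 they became 88 (7.25%). With each library centred on Sertoli cell genes, 133 Rik genes (71.5%) passed limma's adjusted threshold, against 24.8% of all tested genes in either direction. The median of all tested genes was then 0.77 in place of 0.04. The Rik genes lay 0.92 above that median as deposited and 0.93 above it after centring.

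**Figure D1:**
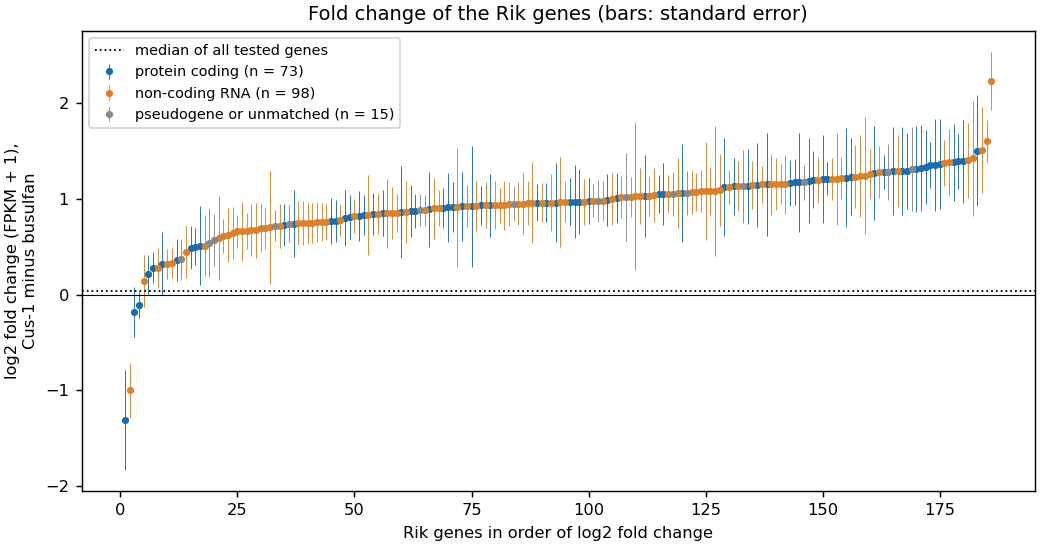
The log2 fold change of each of the 186 Rik genes (vertical axis, Cus-1 minus busulfan on log2(FPKM + 1)) is plotted in ascending order, with the standard error as bar and the gene type as colour (73 protein coding, 98 non-coding RNA, 15 pseudogene or unmatched). A total of 182 points lie above 0, and the 4 below 0 include 2 near -1 or lower.

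The level limit bears on these counts. The busulfan mean was under 10 FPKM for 58 Rik genes, which entered only through the Cus-1 libraries and so had to be higher there. The other 128 had a busulfan mean of 10 FPKM or more, and 115 of them lay above in each treated library and 3 below, with a median log2 fold change of 0.96. This second limit was added after seeing the data, and the share of all tested genes under it was not counted. Of tested genes with a mean of 10 FPKM or more over all libraries, 39.8% lay above and 36.5% below in each. Below the limit, 614 of the 1089 genes were tested and had a median of 0.75, on a scale that understates changes at low levels. Of these 614, 405 lay above in each treated library, against 36.6% of tested genes of any level. The share of all tested genes below 10 FPKM was not counted.

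Rik genes named in the same way from other clone series had a median near that of all genes. There were 85 with a mean of 10 FPKM or more, of which 84 were tested. Of these, 37 (44.0%) lay above and 30 (35.7%) below in each treated library, with a median log2 fold change of 0.08 and 53.6% above 0. At an unadjusted limma p under 0.05, 33.3% of them were higher. The 10 Rik genes of 4 further testis clone series had a median of 0.87, with 6 above and 1 below in each. The difference between the series was not tested, since genes of a library are not replicates of a condition.

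The leader was 1700003G18Rik, a processed transcript with no assigned function on chromosome 7 (116081759 to 116093159 in GRCm38). Its level was 4.09 and 4.94 FPKM under busulfan and 32.3 and 19.1 FPKM under Cus-1. Both treated libraries stood far above both others, and the log2 fold change was 2.23 (SE 0.30, limma adjusted p = 0.152), at percentile 99.8 of all tested genes. The gene lies across 1110004F10Rik, which is read from the other strand and had a log2 fold change of 0.00 at a mean level of 84.3 FPKM. It also overlaps the protein-coding Gm4353 on its own strand, which was at 3.80 and 5.58 FPKM against 12.2 and 4.94 FPKM (0.66), and a strand setting would not separate these. The authors' strand setting is not given in the sources used here, so fragments of such pairs may not be separated.

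Second was 1700016K05Rik, annotated as antisense within the receptor phosphatase gene Ptprm on chromosome 17 (66714454 to 66720485). It stood at 11.2 and 8.66 FPKM under busulfan and 28.2 and 36.3 FPKM under Cus-1 (log2 fold change 1.6 with an SE of 0.22 and a limma adjusted p of 0.152). Unlike most leaders, it was higher in Cus-1 library 2 than in library 1. Ptprm itself had a log2 fold change of -0.12 at a mean level of 4.62 FPKM.

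The next in order were led by 1 treated library. The lincRNA 1700013D24Rik on chromosome 6 (124347598 to 124357069) was at 6.60 and 13.8 FPKM under busulfan and 40.9 and 20.8 FPKM under Cus-1 (log2 fold change 1.51, SE 0.45). The protein-coding 4930451I11Rik on chromosome 7 (126830468 to 126831639) was at 3.32 and 10.2 FPKM against 27.6 and 12.6 FPKM (1.5, SE 0.58). The lincRNA 4933400L20Rik on chromosome 8 (103603782 to 103680384) was at 3.59 and 8.20 FPKM against 28.3 and 9.35 FPKM (1.42, SE 0.60). The groups do not overlap in these 3 genes, but Cus-1 library 2 is close to busulfan library 2 in the last 2. Without Cus-1 library 1 the log2 fold change of 4930451I11Rik was 0.97 and that of 4933400L20Rik 0.67, and without busulfan library 1 they were 0.81 and 0.92.

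The level limit bears on these leaders. With a busulfan mean of 4.52, 9.93, 6.78 and 5.89 FPKM, 1700003G18Rik, 1700016K05Rik, 4930451I11Rik and 4933400L20Rik entered only through the Cus-1 libraries, as did 4930519G04Rik and 1700031P21Rik among those that follow. Of the 128 Rik genes with a busulfan mean of 10 FPKM or more, 1 had a log2 fold change above 1.5. Of the 9389 tested genes with a mean of 10 FPKM or more over all libraries, 61 did.

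The remaining 7 of the 12 highest fold changes lay between 1.36 and 1.40. Among them 1700019G24Rik, antisense to the dynein intermediate chain gene Dync1i1, was at 13.1 and 14.2 FPKM under busulfan and 56.4 and 24.96 FPKM under Cus-1. Dync1i1 itself had a log2 fold change of -0.54. The protein-coding 4930503B20Rik, which RefSeq also lists as Samd13, was at 20.1 and 24.2 FPKM against 88.5 and 39.2 FPKM (log2 fold change 1.38, SE 0.40). GENCODE lists Samd13 as a separate gene, not among those tested, that overlaps it on the same strand, so some fragments could belong to either. The lincRNA 1700020N18Rik on chromosome 1 (91404879 to 91406029) was the most even of the 7, at 43.4 and 64.2 FPKM against 152 and 125 FPKM (1.37, SE 0.24). The others were 1700093K21Rik and 4930519G04Rik (both 1.39), 1700031P21Rik (1.38) and 1700016H13Rik (1.36). In 1700019G24Rik, 4930503B20Rik, 1700093K21Rik, 1700031P21Rik and 1700016H13Rik the value was between 0.67 and 0.92 without Cus-1 library 1.

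The most abundant Rik gene was the lincRNA 1700008K24Rik on chromosome 17 (49112263 to 49113535). It was at 182 and 279.6 FPKM under busulfan and 563 and 449 FPKM under Cus-1, which is 231 ± 69.1 against 506 ± 80.3 FPKM (SD, n = 2). The groups were well apart, with a log2 fold change of 1.15 (SE 0.27). Second in level was the protein-coding 1700029F12Rik on chromosome 13 (97021864 to 97034362), at 171 and 169.6 FPKM under busulfan and 369 and 160.0 FPKM under Cus-1. Cus-1 library 2 was below both busulfan libraries there, and the log2 fold change of 0.51 (SE 0.41) turned to -0.09 without Cus-1 library 1.

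The other 8 of the 10 most abundant lay above in each treated library. The protein-coding 1700010I14Rik, whose start region is printed above, was at 68.5 and 174 FPKM under busulfan and 290.4 and 257 FPKM under Cus-1. Its log2 fold change of 1.31 (SE 0.45) was 0.64 without busulfan library 1, the lowest of the 4, and 1.98 without busulfan library 2. Protein-coding 1700019A02Rik was at 76.5 and 106 FPKM against 194 and 181 FPKM (1.05, SE 0.20), and 1700028J19Rik at 120 and 159 FPKM against 283 and 246 FPKM (0.93, SE 0.20). Both treated libraries were nearly equal in these 2 genes. The gene 1700102P08Rik, which is known to be needed for male fertility, was at 60.2 and 98.8 FPKM against 149 and 143 FPKM (0.91, SE 0.26), and 0.56 without busulfan library 1. For 1700066D14Rik, 1700018B24Rik, 1700003E16Rik and 1700010B08Rik the log2 fold change lay between 0.77 and 1.05.

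**Figure D2:**
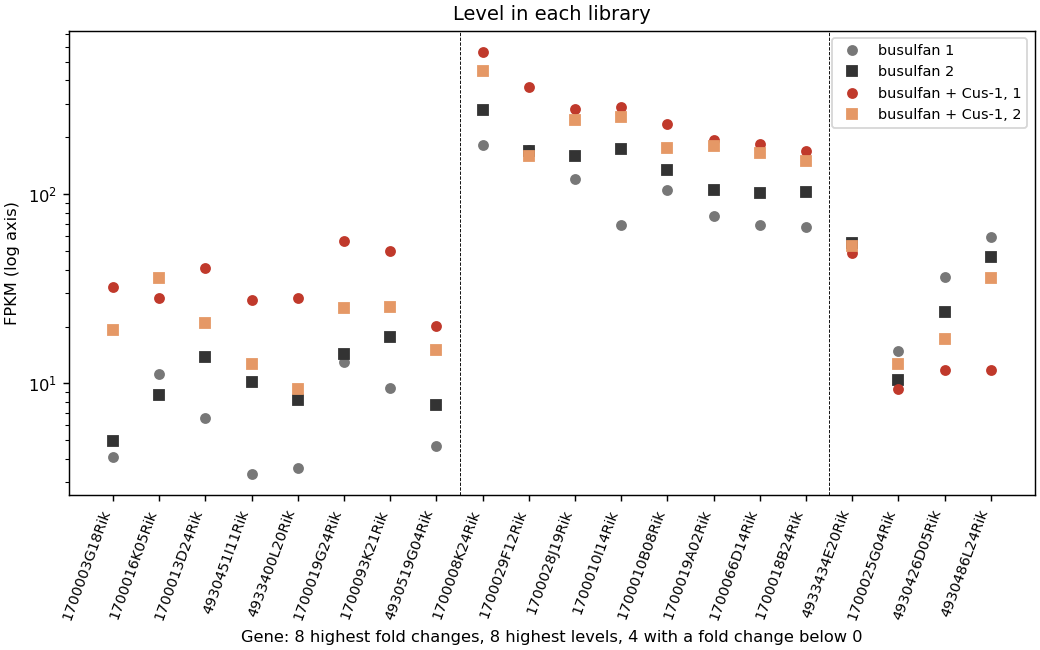
FPKM in each library (log axis) is shown for the 8 Rik genes with the highest fold change, the 8 with the highest level and the 4 with a fold change below 0, with circles for library 1 and squares for library 2 of a group. The busulfan points (grey) lie below the Cus-1 points (red) in the first and second block except for 1700029F12Rik. They lie above them for 4930426D05Rik, 4930486L24Rik and, narrowly, 4933434E20Rik.

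Of the 4 Rik genes with a log2 fold change below 0, 2 stood well below 0. The lowest was the protein-coding 4930486L24Rik on chromosome 13 (60842612 to 60864475), which lies among genes of cathepsins and of the CTLA2 cathepsin inhibitors. It was at 59.8 and 46.8 FPKM under busulfan and 11.7 and 36.2 FPKM under Cus-1. Cus-1 library 1 stood apart from the other 3, and the log2 fold change of -1.31 (SE 0.52, limma adjusted p = 0.183) was -0.53 without it and -2.08 without Cus-1 library 2. It overlaps Gm49393, a gene model on the same strand with a mean of 2.26 FPKM, so some fragments could belong to either.

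4930426D05Rik, annotated as antisense on chromosome 18 (21651448 to 21656105), was at 36.6 and 23.96 FPKM under busulfan and 11.8 and 17.3 FPKM under Cus-1. Its log2 fold change of -1.0 (SE 0.29, limma adjusted p = 0.152) was the only one below 0 with an unadjusted p under 0.05. It overlaps the kelch-like gene Klhl14 on the other strand, which had a log2 fold change of -1.01, with 18.1 and 13.4 FPKM against 5.09 and 10.1 FPKM. Without a known strand setting these 2 cannot be told apart. The 24 Sertoli cell genes had the same sign, with all 24 below in each treated library, a median log2 fold change of -0.73 and a summed level of 14300 and 12300 FPKM against 7060 and 8570 FPKM. Every list given below other than those of differentiating spermatogonia, spermatocytes and spermatids likewise had a median below 0. The median was -0.49 for Leydig, -0.60 for peritubular and stromal, -0.56 for endothelial and -0.68 for macrophage genes. The part of any of these cell types in the level of either gene was not tested.

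The other 2 were nearly level. 4933434E20Rik, which RefSeq also lists as NICE-3, was at 55.1 and 55.6 FPKM under busulfan and 49.1 and 53.5 FPKM under Cus-1 (log2 fold change -0.11, SE 0.14). Its groups did not overlap, but the gap was smaller than the difference between the treated libraries. 1700025G04Rik overlapped between the groups at 14.9 and 10.4 FPKM against 9.33 and 12.7 FPKM (-0.18, SE 0.26), and its sign changed without busulfan library 1 (0.06) and without Cus-1 library 1 (0.02). Centring the libraries on Sertoli cell genes adds the same amount to the log2 fold change of every gene. Both genes were then above 0, at 0.62 and 0.55, through that shift alone.

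Of the 18 Rik genes that overlapped between the groups, 16 had Cus-1 library 2 at or below a busulfan library. In 15, Cus-1 library 1 was above both busulfan libraries. Cus-1 library 1 was above Cus-1 library 2 in 161 Rik genes, so the count of 16 follows largely from that order. It cannot tell a low Cus-1 library 2 from a high busulfan library, and its share over all tested genes was not counted. Chosen after its values were seen, the protein-coding 1700011L22Rik was at 9.74 and 13.6 FPKM under busulfan and 44.5 and 11.4 FPKM under Cus-1. Its log2 fold change of 0.92 (SE 0.63) was -0.02 without Cus-1 library 1. In 1700006J14Rik busulfan library 1 stood apart, at 37.9 FPKM against 94.1 FPKM in busulfan library 2 and 99.3 and 82.2 FPKM under Cus-1 (0.59, SE 0.44, and -0.06 without that library). 4930568E12Rik, at 3.18 and 16.1 FPKM against 19.8 and 14.5 FPKM (1.08, SE 0.68), was at 0.07 without it. These last 2 genes were also chosen after their values were seen.

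A few Rik genes have a described function, and these were picked for it with their values known. 4930447C04Rik, listed by RefSeq also as Six6os1, encodes a central element protein of the synaptonemal complex, the structure that joins paired chromosomes in meiosis. It was at 12.5 and 13.2 FPKM under busulfan and 18.4 and 26.3 FPKM under Cus-1 (log2 fold change 0.73 with an SE of 0.22 and a limma adjusted p of 0.152). 1700028K03Rik, listed also as SCRE, a further protein of meiotic chromosomes, was at 8.27 and 10.6 FPKM against 18.4 and 19.8 FPKM (0.96, SE 0.19, adjusted p = 0.152). In both of these genes Cus-1 library 2 was the higher of the treated libraries, though only slightly so in 1700028K03Rik. In the list of 25 spermatocyte genes described below, Cus-1 library 1 was the higher in 17, so these genes do not stand for that stage.

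In 1700019D03Rik, listed also as smAKAP, a membrane anchor of protein kinase A, Cus-1 library 1 was the higher. It was at 23.1 and 25.4 FPKM under busulfan and 100.1 and 35.6 FPKM under Cus-1, with 1 treated library far above the other (log2 fold change 1.27, SE 0.49, and 0.54 without Cus-1 library 1). 4933427D14Rik, listed also as Kiaa0753, encodes a centriolar satellite protein used by many cell types. Its groups overlapped, at 12.1 and 7.09 FPKM against 14.5 and 9.71 FPKM (0.32, SE 0.33), and it was at -0.02 without busulfan library 2. 1700013H16Rik, listed also as Slx2 and Xlr6, belongs to an X-linked family with similar copies, so its level is uncertain. It was at 4.86 and 10.2 FPKM against 13.0 and 12.1 FPKM, with 0.27 without busulfan library 1 in place of 0.74.

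The Rik genes also differed from one another in how far the treated libraries stood apart. Both libraries enter the mean behind the choice, so a high value in 1 of them could bring a gene in, as in 1700009J07Rik below, and these counts are descriptions. Cus-1 library 1 was above Cus-1 library 2 in 161 of 186 Rik genes, where it was in 51.2% of tested genes, in 48.2% of those at 10 FPKM or more and in 42.9% of Rik genes of other series. The median difference was 0.38 on the log2(FPKM + 1) scale, with a range from -1.55 to 1.92. Busulfan library 2 was likewise above busulfan library 1 in 160 Rik genes. It was so in 10572 of the 19837 tested genes and in 5193 of the 9389 at 10 FPKM or more. The full order busulfan 1, busulfan 2, Cus-1 library 2, Cus-1 library 1 held in 136 Rik genes, or 73.1%, against 29.3% of tested genes at 10 FPKM or more. Most Rik genes thus followed 1 order of the 4 libraries, within groups as well as between them.

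Lists of germ cell genes gave a scale for that difference. It was 0.19 in the median of 25 spermatocyte genes, 0.78 in 25 round spermatid genes and 1.41 in 24 elongating spermatid genes. The spermatocyte genes ran from -0.27 to 0.67 and the elongating spermatid genes from 0.69 to 1.57, so these lists nearly met but did not overlap. The round spermatid genes ran across both, from 0.07 to 1.39, with 17 of 25 in the elongating spermatid range and 8 in the spermatocyte range. The difference therefore does not assign a gene to a stage. Of the Rik genes 55 lay at or above the lowest elongating spermatid gene (29.6%), where 6.42% of tested genes at 10 FPKM or more did. Another 130 (69.9%) lay at or below the highest spermatocyte gene, where 93.3% of tested genes at 10 FPKM or more did, which is the larger share.

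Protein-coding and non-coding Rik genes had like fold changes but unlike gaps between the treated libraries. By the GENCODE M21 annotation 73 were protein coding, 53 lincRNA, 30 antisense, 9 processed transcripts, 4 of the TEC class (to be experimentally tested), 2 bidirectional promoter lncRNA and 4 pseudogenes, and 11 had no match. The median log2 fold change was 0.97 for protein-coding genes and 0.96 for the 98 non-coding RNAs. The gap between treated libraries was at or above the lowest elongating spermatid gene in 32 of 73 coding genes (43.8%) and in 20 of 98 non-coding ones (20.4%). Cus-1 library 1 was at 2 times library 2 or more in 22 of 73 coding and 13 of 98 non-coding Rik genes, a count not made over all tested genes. These are descriptions, with no test of the difference between the types.

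The widest gap was in 4930511M06Rik, an antisense transcript on chromosome 18 (57373455 to 57552397) at 16.6 and 5.70 FPKM under busulfan and 42.0 and 10.4 FPKM under Cus-1. Its groups overlapped, and its log2 fold change of 1.03 (SE 0.77) was 0.07 without Cus-1 library 1 and 0.33 without busulfan library 2. The lincRNA 1700009J07Rik on chromosome 10 (77893417 to 77896114) was at 4.43 and 5.47 FPKM against 25.3 and 6.47 FPKM, with a log2 fold change of 1.24 (SE 0.61) that was 0.33 without Cus-1 library 1. The gap was below 0 in 25 Rik genes, and in 4863 of the 9389 tested genes at 10 FPKM or more. Among the Rik genes it was lowest in 4930486L24Rik, at -1.55. In 1700108J01Rik, with a gap of -0.62, the levels were 34.7 and 45.6 FPKM against 35.2 and 54.7 FPKM (0.14, SE 0.27). The abundant 1700017B05Rik, with a gap of 0.47, was at 44.0 and 43.0 FPKM against 59.8 and 42.8 FPKM (0.21, SE 0.20). Both had overlapping groups and changed sign when 1 library was left out, to -0.17 without Cus-1 library 2 for 1700108J01Rik and to -0.02 without Cus-1 library 1 for 1700017B05Rik. Apart from 4930486L24Rik, the genes of this paragraph were chosen after their values were seen.

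**Figure D3:**
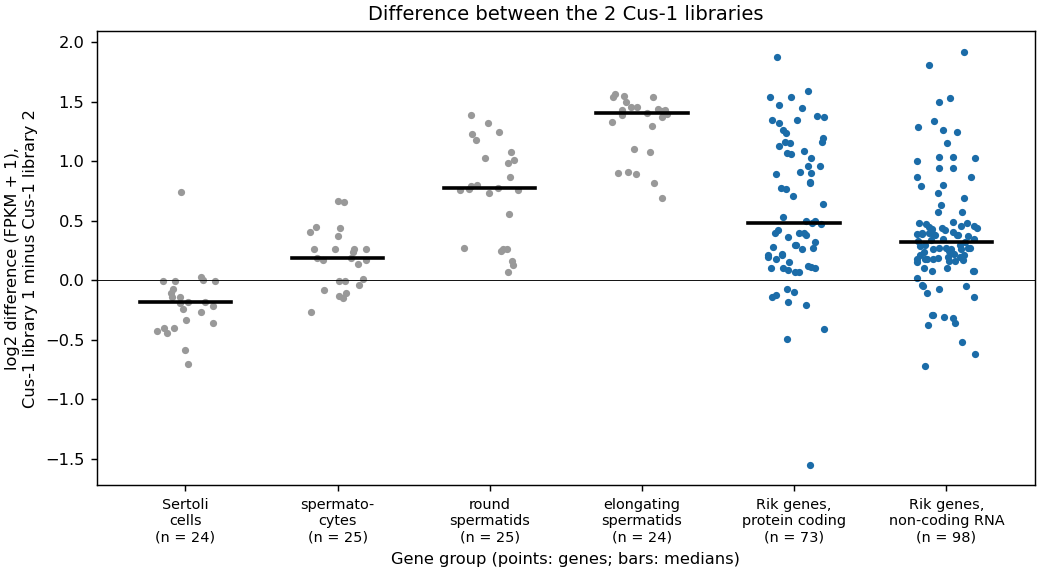
The log2(FPKM + 1) difference of Cus-1 library 1 minus Cus-1 library 2 (vertical axis) is shown for each gene of 4 cell type lists (grey) and for the coding and non-coding Rik genes (blue), with medians as bars. The median is -0.19 for Sertoli cell, 0.19 for spermatocyte, 0.78 for round spermatid and 1.41 for elongating spermatid genes. The coding Rik genes run from -1.55 to 1.88 and the non-coding ones from -0.72 to 1.92, past these medians on both sides.

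Non-coding genes with other names had medians between those of the Rik genes and of coding genes. Among tested genes at 10 FPKM or more with other names, 62 lincRNA genes had a median log2 fold change of 0.46 and 55 antisense genes one of 0.84, where 8165 protein-coding genes had -0.02. Of antisense genes, 23 of 30 Rik genes (76.7%) and 42 of 55 others (76.4%) lay above in each treated library. Of lincRNA genes, 51 of 53 Rik genes (96.2%) and 31 of 62 others (50%) did. The shares were thus alike for antisense genes and apart for lincRNA genes, with no test of either difference.

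The lists of germ cell genes past the spermatogonial stage had the same sign as the Rik genes. Above in each treated library lay 24 of 25 spermatocyte genes (median log2 fold change 0.90), 24 of 25 round spermatid genes (1.13) and 24 of 24 elongating spermatid genes (1.19). At an unadjusted limma p under 0.05, 15, 20 and 11 of them were higher. The summed level of the spermatocyte list was 1930 and 2920 FPKM against 4700 and 4150 FPKM, and that of the round spermatid list 922 and 1300 FPKM against 2760 and 1810 FPKM. The elongating spermatid list summed to 3850 and 4190 FPKM under busulfan and 14300 and 5490 FPKM under Cus-1. The germ cell lactate dehydrogenase gene Ldhc stood at 905 and 1275 FPKM against 2049 and 1823 FPKM, and Mael, which acts in transposon silencing, had a log2 fold change of 0.90. Pgam2, a glycolytic mutase, was at 0.99 and Tbpl1, a TBP-like factor, at 0.82, while Tnp1 and Prm1, which package sperm chromatin, were at 1.17 and 1.03.

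Spermatogonial and somatic lists had other signs or mixed ones. The 10 tested genes of undifferentiated spermatogonia had a median of -0.18 (Tspan8 -0.54, Etv5 -0.36), with 2 above and 5 below in each treated library. The 12 of differentiating spermatogonia had a median of 0.55 (Dmrtb1 0.79, Tex101 0.90), with 6 above and 2 below. Single genes differed in sign within both lists, with Zbtb16 at -1.08 and Id4 at 0.31 in the first and Kit, the receptor of differentiating spermatogonia, at -0.75 in the second (these 3 were chosen after their values were seen). The medians were -0.73 for Sertoli (Clu -0.67, Ptgds -0.96), -0.49 for Leydig (Insl3 -0.82, Cyp17a1 -0.36), -0.60 for peritubular and stromal (Myl9 -0.34, Dcn -0.71), -0.56 for endothelial (Cldn5 -0.66, Egfl7 -0.38) and -0.68 for macrophage genes (Lyz2 -0.64, C1qa -0.56). In the same order, 24 of 24, 10 of 14, 9 of 14, 9 of 11 and 12 of 15 lay below in each treated library. The summed level was 29700 and 28900 FPKM against 14300 and 21100 FPKM for the Leydig list, and 1090 and 846 FPKM against 571 and 693 FPKM for the macrophage list. It was 1010 and 656 FPKM against 484 and 660 FPKM for the peritubular and stromal list, and 94.7 and 72.2 FPKM against 48.1 and 59.3 FPKM for the endothelial list. The lymphocyte list summed to 18.8 and 27.1 FPKM against 23.9 and 17.9 FPKM, and the epididymis list to 41.1 and 20.2 FPKM against 16.2 and 14.3 FPKM. Of the listed genes in the table, 0 were at 0 in all libraries. Only 2 lymphocyte genes (median -0.20, Cd3d 1.29, Ighm -1.69), 3 epididymis genes (-0.78, Spink8 -0.97, Rnase10 0.17) and 5 genes of blood and fat (-0.46, Hbb-bs -0.60, Alas2 -0.28) were tested. In these 13 lists 0 genes passed limma's adjusted threshold, and at an unadjusted p under 0.05 19 Sertoli genes were lower. The part of a different cell mixture in the levels of the Rik genes was not tested.

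Many Rik genes sit against another gene. A position was found for 175, on every autosome and with 5 on X (2.86%, against 3.94% of tested genes with a position) and 0 on Y. The span of an annotated gene overlapped that of 93, on the opposite strand for 87 and on the same strand for 23. For 66 the other gene was tested. Spans include introns, and neither shared exon bases nor the share of all genes with such an overlap was counted. Where exons are shared, levels are uncertain, on the same strand even with a known strand setting. Among the 66 was 4930557K07Rik, antisense over Acrbp, which encodes the acrosin binding protein of the acrosome. It was at 3.42 and 15.04 FPKM under busulfan and 12.9 and 17.0 FPKM under Cus-1, with overlapping groups (log2 fold change 0.91, SE 0.62, and -0.02 without busulfan library 1). Acrbp was at 104 and 131 FPKM against 240.2 and 200.1 FPKM, with a log2 fold change of 0.90 and no overlap.

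Protein-coding neighbours that start within 1 kb of a Rik gene and are read the other way had a wider mix of values than the Rik genes themselves. There were 30 such tested neighbours, with a median log2 fold change of 0.38, and 20 (66.7%) lay above in each treated library, against 36.6% of all tested genes. The starts of 1700003E16Rik and Wdr54 are 7 bases apart, and the log2 fold changes were 0.99 and 0.82. Stk33, a kinase of spermatids, was at 0.88 and its partner 1700095J03Rik at 0.66. In other pairs the values parted: Trim35 was at -0.55 beside 0.75 for 1700001G11Rik, and Etfdh, an enzyme of the mitochondrial electron transport flavoprotein pathway, at -0.52 beside 1.01 for 4930579G24Rik (0.67 without busulfan library 1). The pairs named here were chosen after their values were seen. Genes of a pair share an annotated start region, and some also share bases that cannot be assigned without strand.

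**Figure D4:**
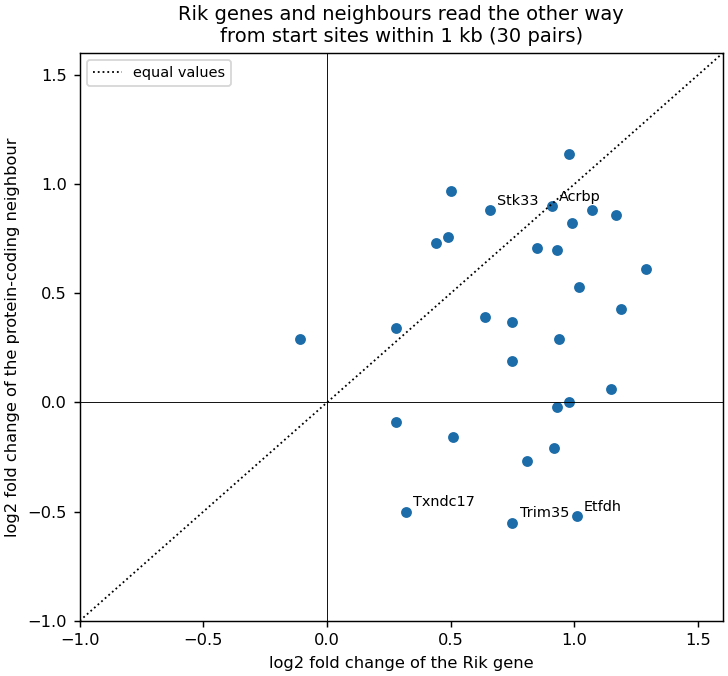
Each point is 1 of 30 pairs of a Rik gene (horizontal axis) and a protein-coding gene read the other way from a start within 1 kb (vertical axis), both as log2 fold change of Cus-1 minus busulfan on log2(FPKM + 1). The Rik genes lie to the right of 0 except 4933434E20Rik, while 8 neighbours lie below 0.

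The start regions were searched for letters bound by factors of meiotic and spermatid genes, and the shares are given with no test. Over 151 promoter windows of Rik genes and 32851 windows of all genes, both strands, the RFX letters GTTGCC were in 15.2% and 12.5%, the MYB site AACNG in 86.1% and 80.3%, and TATAAA in 9.27% and 13.6%. The shorter TGACG was in 23.2% and 20.8%, and the full element TGACGTCA, which contains it, in 1.32% and 1.79%. In the windows of tested genes at 10 FPKM or more the shares were 13.5% for GTTGCC, 79.0% for AACNG, 7.22% for TATAAA, 31.9% for TGACG and 3.07% for TGACGTCA. Against genes of that level, TATAAA was thus the more frequent and TGACG the less frequent in the Rik genes, the reverse of the order against all windows. In the printed window of 1700010I14Rik the RFX letters occur 3 times at a spacing of 19 bases, the first 17 bases before the start. Such a count of 3 or more was found in 1 window of the Rik genes and in 0.103% of all windows. The window of 1700102P08Rik has the RFX letters at 2 places, that of 1700003G18Rik the TGACG letters at 2 places 19 bases apart, and that of 4930486L24Rik neither. A match is a description of the letters and not a bound site.

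Depth was estimated from the lowest values of the table, where values of genes with 1 transcript pile up at the step that 1 fragment is worth, and came to 12.7 to 14 M (1e+06) fragments a library if that step is 1 fragment. With the annotated exon length, the Rik genes with a position then rested on a median of 298 and 409 fragments in busulfan libraries 1 and 2 and of 785 and 548 in Cus-1 libraries 1 and 2. The lowest was 16 fragments, in busulfan library 1, so single values near 3 or 4 FPKM in short transcripts carry a wide counting error.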

How the data were processed

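RNA from mouse testis was measured in 2 busulfan libraries and 2 libraries of busulfan with Cus-1. The authors deposited 1 table of FPKM values per gene and library, printed to 2 decimals, and the submitters' processing notes name build mm10. Which aligner, counter, annotation, strand setting and gene lengths they used is not given in the sources used here. Each column was assigned by the library name in the labels. Of 45536 rows, 910 carried a dash as name (0.641% to 0.688% of summed FPKM) and were left out with 46 blank rows. For 115 symbols on more than 1 row, the row with the highest mean was used.

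The 19837 genes that reached 1 FPKM in 2 or more libraries were tested with limma 3.58.1 in R 4.3.3 on log2(FPKM + 1), with a mean-variance trend, two-sided, with p-values adjusted over all of them by Benjamini-Hochberg against a threshold of 0.05. An exact two-sided permutation test of 1 gene with 2 against 2 cannot go below 0.333, so no such p is given. Fold changes on this scale understate those of low genes. The fit was also run on simulated data, which gave every gene the same spread and planted changes larger than those of most Rik genes. That run does not show how well changes of the present size and unevenness are recovered. No replicate numbers in the labels pair the libraries. Symbols were matched exactly to GENCODE M21 (83.2% of tested symbols) and to RefSeq tables on GRCm38.p6, both of the mm10 assembly. The rule for named genes took the 12 highest log2 fold changes, every one below 0, the 10 highest levels, 3 genes on each side of the limit, genes that overlap or face a listed marker, and the 2 most abundant genes of each list, which gave 30 Rik genes, and 14 more were added after their values were seen. The Rik genes and the lists were chosen with earlier results of these data known.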

Additional observations from a re-analysis of the deposited data

How the results depend on the processing

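The median log2 fold change of the Rik genes kept its sign in every alternative run. It moved by more than 0.29 only with libraries centred on Sertoli cell genes, to 1.70. The value 0.29 is the SD between replicates of the median log2 level of the Rik genes, and not the spread of a fold change. The Sertoli centring raises the log2 fold change of every gene by the same amount, so the value of 1.70 follows from that shift. With it 133 Rik genes passed limma's adjusted threshold, and 0 were lower by either count. The share of all tested genes that passed is given with the counts above. Leaving out 1 library gave a median of 0.73 to 1.19, 64 to 149 higher (where 5.84% to 19.3% of all tested genes were) and 0 to 2 lower genes at an unadjusted limma p under 0.05, and 3 to 5 below in each treated library. The count of lower genes at that p was 2 with scaling to the same median, with pseudocount 5 and with quantile normalization. In these alternative runs, the shares of all tested genes lower at that p, or below in each treated library, were not counted. With a limit of 5 FPKM, 274 of 334 genes lay above and 8 below in each treated library, and 199 were higher and 3 lower at that p. Of all tested genes at that limit, 38.0% lay above and 36.2% below, and 20.4% were higher and 12.9% lower at that p. With 20 FPKM, 91 of 99 lay above in each and 79 were higher at that p, against 42.6% and 24.7% of tested genes at that limit. No Rik gene passed the adjusted threshold in the alternatives other than the Sertoli centring.

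Single genes with small or uneven values turned sign. Leaving out 1 library at a time gave -0.06 to 1.23 for 1700006J14Rik, -0.02 to 1.86 for 1700011L22Rik, -0.02 to 0.45 for 1700017B05Rik, -0.42 to 0.06 for 1700025G04Rik, -0.09 to 1.11 for 1700029F12Rik, -0.17 to 0.45 for 1700108J01Rik, -0.02 to 1.84 for 4930557K07Rik and -0.02 to 0.67 for 4933427D14Rik. With the Sertoli centring 1700025G04Rik was at 0.55 and 4933434E20Rik at 0.62, through the shift that it gives every gene. The cause of the changes without 1 library was not tested. No paired analysis was possible because the labels give the libraries no shared replicate numbers. The alternative of a busulfan mean of 10 FPKM or more was chosen after seeing the data. A group left with 1 library was assumed to vary like the other.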
